A study of Mus musculus with 24 samples.

Results

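Hematopoietic stem and progenitor cells (HSPCs) carrying a Srcap mutation were compared with WT HSPCs, both taken from mouse bone marrow 2 weeks after transplantation. The rule took the 2 Srcap mutant and the 2 WT libraries labelled HSPC at that time, 4 of the 24 libraries in the series, and set apart genes with a mean of at least 10 CPM, a count scaled to the size of its library, in either genotype, called well expressed here. Of 19522 genes tested, 9465 were well expressed, 414 of them through 1 genotype only. Next to that threshold, Zc3h12a was inside with mean levels of 7.17 CPM in mutants against 10.01 CPM in WT. Zscan20 was outside with 7.75 CPM in mutants against 9.99 CPM in WT. Both groups are strain C57BL6/J, are labelled as transplanted with no other agent, and differ in genotype only, Srcap mutant against WT. The file headers give the mutant as Mut with no allele. The labels give neither the age of the mice, the conditioning of recipients nor whether the libraries come from separate animals. The p-values thus measure the spread between libraries of the same group, estimated over all 16 HSPC libraries, which may be technical. The other HSPC libraries, which share the fit, are mutant and WT HSPCs untreated, 12 hours after doxorubicin, or at 20 weeks in a competitive transplant, and each of those groups holds 2 libraries.

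SRCAP is the ATPase of a chromatin remodeling complex that exchanges histone H2A for the variant H2A.Z near gene starts. Transplanted stem and progenitor cells proliferate and restore the blood lineages through megakaryocyte-erythroid, granulocyte-monocyte and lymphoid progenitors. Each route turns on its own transcription factors, such as GATA factors in megakaryocytes, mast cells and red cells, and EBF1, PAX5 and the E2A proteins in B cell precursors. Interferon response genes are switched on by signaling from interferon receptors and are known to affect stem cells after stress. RNA was measured in bulk, where fewer cells of a type and less RNA per cell cannot be told apart.

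The labelled cell type was checked against its markers, in CPM of all counts. Kit, the stem cell factor receptor, stood at 338 to 403 CPM and Cd34 at 417 to 626 CPM in the 4 libraries, against 311 to 601 and 528 to 1100 CPM in the other HSPC libraries. Ly6a, which encodes Sca-1 of the LSK phenotype that the 2-week headers name, was at 30.8 to 48.0 CPM, below the 142 to 484 CPM of the other HSPC libraries, and Procr, a stem cell receptor, was at 4.10 to 5.32 CPM against 24.98 to 80.5 CPM there. Flt3 was also lower, at 189 to 283 CPM against 333 to 846 CPM. Granulocyte-monocyte progenitor markers were higher, with Mpo at 2206 to 5257 CPM against 122 to 177 CPM, and Elane, Prtn3 and Ctsg likewise. Klf1, a red cell factor, was at 83.1 to 109 CPM against 0.164 to 4.14 CPM, while the globin genes Hba-a1 and Hbb-bs overlapped. The mix of cells behind these values was not tested. Total counts were 49779482 and 26369992 in the mutant libraries and 34957812 and 44416947 in WT. The values below are CPM scaled by TMM, which corrects library sizes for composition, and log2 fold changes are mutant minus WT with their SE. The mutant libraries differed from each other by over 2-fold in 235 well expressed genes and the WT libraries in 118. The 2-week libraries carried Xist at 545 CPM or more and no Ddx3y count, while the other HSPC libraries held Xist at no more than 0.484 CPM, so comparisons with other conditions cross the sex of the cells as well as the header directory.

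Srcap itself was detected in every library. The gene (ENSMUSG00000053877, GRCm39 chromosome 7, 127111155 to 127160391, plus strand) had 11.8 and 12.6 CPM in mutants, against 13.6 and 13.5 CPM in WT. Both mutant libraries lay below both WT libraries, by less than the error of the fit, at -0.16 ± 0.36 with a 95% interval of -0.90 to 0.59 and adjusted p = 0.954.

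Few well expressed genes separated the genotypes beyond the spread of the libraries. With edgeR's quasi-likelihood test and Benjamini-Hochberg adjustment over all genes, 27 genes were called, 0.138% of those tested, with 3 higher in mutants, 0.0154%, and 24 lower, 0.123%, and 3 of them were well expressed, 0.0317%. An unadjusted p under 0.05 was reached by 1711 genes, 8.76%, and by 712 well expressed genes, 7.52%. Both mutant libraries lay above both WT libraries in 1457 well expressed genes, 15.4%, and below both in 1593, 16.8%. With an unadjusted p under 0.05 as well, 280 were higher in mutants, 2.96%, and 349 lower, 3.69%. The median log2 fold change of all well expressed genes was 0.01 and 51.7% of them had a value above 0, against 45.9% of all genes tested. The number of calls moved with the libraries. Leaving out WT replicate 1 left 11 calls and leaving out mutant replicate 1 left 13, while 672 genes were called when mutant replicate 2 was left out. Of well expressed genes, 282 were then called, and 11 when WT replicate 2 was left out.

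**Figure D1:**
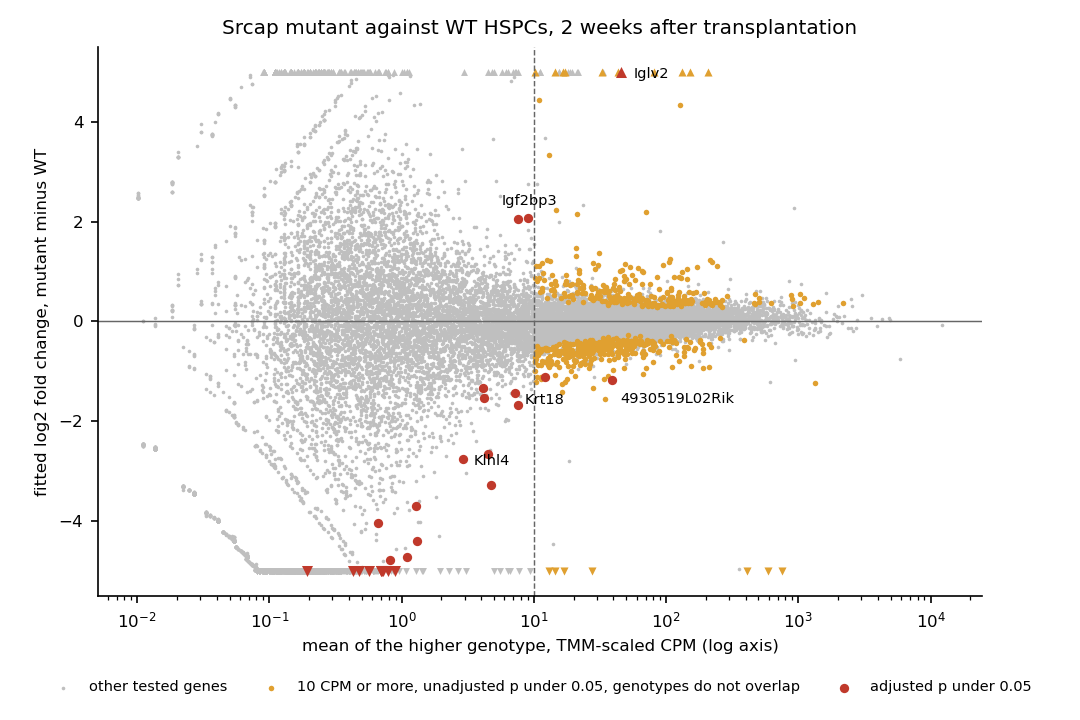
Fitted log2 fold change of each tested gene, mutant minus WT HSPCs at 2 weeks, against the mean CPM of the higher genotype on a log axis, with the dashed line at 10 CPM and triangles for genes beyond the plotted range. The called genes, in red, lie mostly left of the line and below 0, while 3 lie right of it, of which Iglv2 is above 0 and Krt18 and 4930519L02Rik are below.

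Of the well expressed genes 1 rose and 2 fell, and Iglv2 and Krt18 reached a mean of 10 CPM in 1 genotype only. Iglv2, a variable segment of the immunoglobulin lambda light chain (ENSMUSG00000076940, GRCm39 chromosome 16, 19079151 to 19079609, minus strand), had 38.6 and 52.8 CPM in mutants, against 0.0813 and 0.201 CPM in WT. The fitted change was 8.27 ± 0.68 with adjusted p = 0.00558, and adjusted p = 0.0527 without WT replicate 1.

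The RIKEN gene model 4930519L02Rik (ENSMUSG00000105652, chromosome 3, 142723421 to 142746513, plus strand) fell to 17.9 and 17.1 CPM in mutants, against 44.9 and 33.5 CPM in WT. Its change was -1.16 ± 0.19 with adjusted p = 0.017, and the call was lost without WT replicate 1, at adjusted p = 0.17, or mutant replicate 1, at 0.0597. Krt18, an intermediate filament keratin (ENSMUSG00000023043, chromosome 15, 101936615 to 101940462, plus strand), fell to 5.35 and 6.07 CPM in mutants, against 13.3 and 11.2 CPM in WT, with -1.10 ± 0.21 and adjusted p = 0.0477. The genotypes did not overlap in either gene. Krt18 stayed called when mutant replicate 2 was left out, at adjusted p = 0.0154, and was lost in the other 3 leave-outs.

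The B cell list gave the largest median of the lineage lists. Of its 30 members all were tested and 21 were well expressed, and 18 of these were higher in mutants and 3 lower, with a median log2 fold change of 0.89 against 0.01 over all well expressed genes. Over all 30 the median was 0.54. No overlap was found in 15 that were higher and 1 that was lower, and 16 and 1 had an unadjusted p under 0.05. The shares over all well expressed genes, to be set beside such counts in each list, were 15.4% higher and 16.8% lower without overlap. None was called after adjustment by edgeR, and DESeq2 called 5, all higher. Mutant replicate 1 held the highest value of 17 of the 21 members and WT replicate 1 the lowest of 18. Leaving out WT replicate 1 gave a median of 0.58, and leaving out WT replicate 2 gave 1.21. It was 0.51 when mutant replicate 1 was left out, and 1.15 when mutant replicate 2 was.

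Transcription factors of the B lineage programme were among the genes that did not overlap. Ebf1, the factor that commits progenitors to the B lineage, had 135 and 76.8 CPM in mutants, against 33.8 and 58.5 CPM in WT, with 1.19 ± 0.34 and adjusted p = 0.306. Pax5, which fixes B cell identity, had 224 and 117 CPM in mutants, against 58.1 and 101 CPM in WT. The second mutant library exceeded the second WT library by a small margin for Pax5, while the first pair stood far apart. Foxo1, which acts with EBF1 in B cell precursors, had 69.1 and 48.1 CPM in mutants and 24.97 and 40.5 CPM in WT. Pou2af1, a coactivator of B cell transcription, had 142 and 87.5 CPM in mutants, against 41.6 and 81.7 CPM in WT. Ets1, an ETS factor used by lymphoid cells, was not on the list and had 171 and 118 CPM in mutants, against 62.7 and 98.6 CPM in WT, with 0.84 ± 0.21 and adjusted p = 0.16.

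Several receptor and signaling members of the list, none called, were also higher in both mutant libraries. Il7r, the interleukin 7 receptor chain that early B and T cell precursors need, had 81.3 and 53.4 CPM in mutants and 29.0 and 38.9 CPM in WT, with 0.99 ± 0.27. Its highest value was in mutant replicate 1 and its lowest in WT replicate 1. Cd79a, a signaling chain of the B cell receptor, had 151 and 112 CPM in mutants, against 46.1 and 85.9 CPM in WT, and Cd79b, its partner, 151 and 98.5 CPM in mutants, against 70.2 and 95.5 CPM in WT. Blnk, the adaptor below that receptor, had 148 and 100 CPM in mutants, against 51.0 and 82.9 CPM in WT. Of the 3 members that were lower, Cd37, a tetraspanin, did not overlap, with 81.1 and 96.7 CPM in mutants, against 119 and 117 CPM in WT. The others, Cd72 and Ly6d, overlapped, and Ly6d, a marker of B-biased lymphoid progenitors, had 19.6 and 22.9 CPM in mutants and 18.5 and 27.6 CPM in WT.

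Values of 3 further list members, none called, concern antigen receptor rearrangement and the surrogate light chain. Rag1, a subunit of the recombinase, had 272 and 171 CPM in mutants, against 74.2 and 120 CPM in WT, with 1.19 ± 0.37. Igll1, a component of the surrogate light chain of pre-B cells, had 312 and 170 CPM in mutants, against 85.05 and 140 CPM in WT, with 1.10 ± 0.39. Rag1 was named among members without overlap, and Igll1, which did not overlap either, after its values were seen. In both the second mutant library lay nearer to the second WT library than to the first mutant one. Dntt, the polymerase that adds bases at the joins, had 1176 and 896 CPM in mutants, against 601 and 806 CPM in WT. These values moved with mutant replicate 1, and without it the log2 fold change was 0.69 for Ebf1, 0.61 for Il7r, 0.78 for Rag1 and 0.56 for Igll1. Under DESeq2, Ebf1 had adjusted p = 0.00436 and Il7r 0.0106, so these calls depend on the test. DESeq2 called 261 of the 16872 genes to which it gave an adjusted p, 1.55%.

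The promoters of 4 of these genes are shown because they hold letters that B lineage factors are known to bind. The sequences are RefSeq promoters on GRCm38.p6, 250 bases up to the start site and written in the direction of the gene, with matches in capitals. The letters searched were the EBF1 core CCCNNGGG and the E-box CAGGTG of E2A, on both strands.
Igll1 (chr16:16863986-16864235, minus strand): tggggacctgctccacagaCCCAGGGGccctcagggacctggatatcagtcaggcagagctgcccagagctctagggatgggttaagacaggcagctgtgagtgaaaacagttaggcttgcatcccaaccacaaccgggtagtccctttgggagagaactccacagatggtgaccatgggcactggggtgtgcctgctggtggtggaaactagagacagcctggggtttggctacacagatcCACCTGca
Cd79a (chr7:24897247-24897496, plus strand): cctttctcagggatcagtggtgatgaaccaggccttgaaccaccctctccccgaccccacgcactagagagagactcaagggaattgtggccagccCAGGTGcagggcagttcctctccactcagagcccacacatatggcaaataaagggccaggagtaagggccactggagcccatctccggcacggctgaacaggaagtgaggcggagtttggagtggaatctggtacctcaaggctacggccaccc
Rag1 (chr2:101649533-101649782, minus strand): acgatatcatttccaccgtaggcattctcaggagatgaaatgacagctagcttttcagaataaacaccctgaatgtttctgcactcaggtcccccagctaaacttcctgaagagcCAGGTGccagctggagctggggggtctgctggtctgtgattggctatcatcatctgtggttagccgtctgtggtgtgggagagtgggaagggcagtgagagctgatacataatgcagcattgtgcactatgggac
Blnk (chr19:40994222-40994471, minus strand): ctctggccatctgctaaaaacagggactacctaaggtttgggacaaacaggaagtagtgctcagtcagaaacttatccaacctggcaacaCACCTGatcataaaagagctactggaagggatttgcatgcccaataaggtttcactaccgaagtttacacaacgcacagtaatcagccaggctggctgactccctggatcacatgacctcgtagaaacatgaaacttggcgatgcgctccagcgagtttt
Of the 17 well expressed B list members with a promoter in the RefSeq table, 6 held the E-box, 35.3%, against 19.4% of all 27025 promoters and 16.8% of those of 7565 well expressed genes. The EBF1 core was in 2 of the 17, 11.8%, against 13.4% of all promoters and 18.4% of those of well expressed genes. A match is a description of the letters and not of binding, and sites that depart from the searched letters were not counted. Over all well expressed genes with an E-box, the median log2 fold change was 0.00, against 0.01 for all those with a promoter.

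The genes of early and late B cells were set against each other in the HSPC libraries and in the B cell libraries of the same time. Igll1, which precursors express, stood at 2.06 and 1.52 times the Cd79a level in the mutant and 1.85 and 1.63 times in the WT HSPC libraries, as ratios of CPM, so the genotypes overlapped. In B cell libraries the ratio was 0.124 and 0.0554 in mutants and 0.182 and 0.120 in WT. Ms4a1, which encodes CD20 of mature B cells, stood at 0.00484 and 0.0112 times Cd79a in mutant and 0.0159 and 0.0229 times in WT HSPC libraries, against 0.733 and 0.644 times in mutant and 0.570 and 0.738 times in WT B cell libraries. Both HSPC genotypes thus lay far from the B cell libraries in both ratios, at high Igll1 and low Ms4a1 per Cd79a. These ratios were picked after values were seen, and others lay closer. Rag1 per Cd79a was 1.39 to 1.80 in HSPC and 0.697 to 1.12 in B cell libraries. Ebf1 per Cd79a was 0.682 to 0.889 in HSPC and 0.288 to 0.425 in B cell libraries. The part of contaminating B lineage cells in the B list values was not tested.

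**Figure D2:**
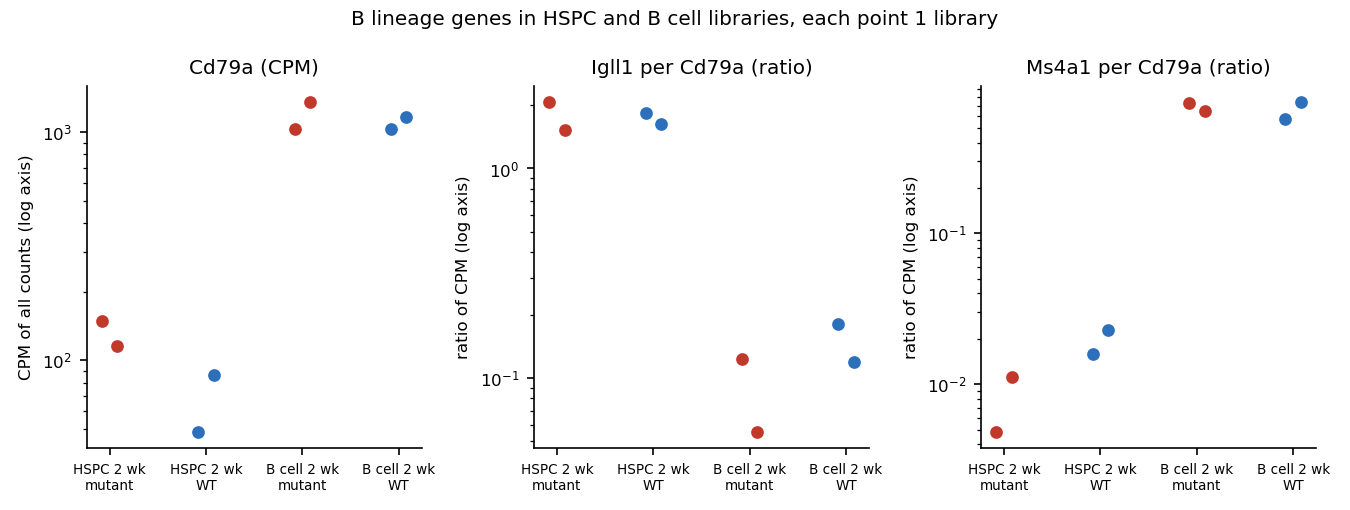
Cd79a in CPM, and Igll1 and Ms4a1 as ratios to Cd79a, on log axes, in mutant and WT HSPC and B cell libraries at 2 weeks, 1 point per library. Cd79a is higher in both mutant HSPC libraries than in both WT ones, and both HSPC genotypes have more Igll1 and less Ms4a1 per Cd79a than the B cell libraries.

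The early lymphoid priming list moved less as a whole. It shares 5 genes with the B cell list, 16.7% of the B cell list and 20.0% of its own. Of 23 well expressed members, 13 were higher and 10 lower in mutants, with a median of 0.16, and 0.17 over all 25, and 9 were higher and 2 lower without overlap. Leaving out WT replicate 1 gave 0.03 and leaving out mutant replicate 2 gave -0.02. None was called by edgeR and 3 by DESeq2, while 7 that were higher and 2 that were lower had an unadjusted p under 0.05. Bcl11a, Ikzf1 and Satb1, transcription factors of lymphoid priming, were among the higher ones. Ikzf1 had 605 and 536 CPM in mutants, against 420 and 526 CPM in WT. The 2 that were lower without overlap were Il12a, a cytokine subunit, with 20.6 and 26.1 CPM in mutants against 41.4 and 31.8 CPM in WT, and Cd27, a receptor of the tumor necrosis factor family, with 65.5 and 95.6 CPM in mutants against 107 and 104 CPM in WT. Flt3, the cytokine receptor of multipotent and lymphoid-primed progenitors, overlapped at 191 and 274 CPM in mutants and 231 and 257 CPM in WT.

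Rearranged immunoglobulin transcripts differed between libraries in which segments they used. Of 346 variable segments in the files, 231 were tested and 43 were well expressed. A segment could reach 10 CPM through the genotype or the single library where it was high, so directions are not counted here. In 25 of the 43, over 90% of the summed CPM came from 1 library, which was mutant replicate 1 for 12, mutant replicate 2 for 6, WT replicate 1 for 1 and WT replicate 2 for 6. Segments at 10 CPM of all counts or more numbered 33 and 26 in mutants and 7 and 19 in WT. Their 5 most abundant segments held 56.8% and 70.9% of the variable segment counts in mutants, against 94.5% and 91.5% in WT. The share of all counts in variable segments was 0.257% and 0.242% in mutants, between the 0.199% and 0.466% of WT. In the other HSPC conditions 92 to 168 segments reached 10 CPM in each library.

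Besides Iglv2, some segments had at least 10 CPM in both mutant libraries and under 1 CPM in both WT libraries. They passed 10 CPM through the mutants only, so no direction is read from them. Ighv6-3 had 230 and 75.8 CPM in mutants, against 0.0542 and 0 CPM in WT, and Igkv9-120 had 19.1 and 14.3 CPM against 0.0542 and 0 CPM. Neither was called, with adjusted p = 0.0679 for Ighv6-3 and 0.129 for Igkv9-120. Ighv1-9 had 244 and 20.6 CPM in mutants, Igkv1-88 had 391 and 22.9 CPM and Igkv4-55 had 123 and 39.1 CPM, all against at most 0.290 CPM in WT. In B cell libraries at 2 weeks Iglv2 stood at 111 and 105 CPM of all counts in mutants and 74.2 and 114 CPM in WT, so its genotypes overlapped there. Each HSPC library of the other conditions, mutant or WT, held 71.1 to 1330 CPM of all counts for Iglv2. Constant segment Iglc2, which pairs with Iglv2, had 62.7 and 77.6 CPM in mutant HSPCs, against 8.65 and 21.96 CPM in WT, with adjusted p = 0.14.

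Other segments were higher in WT. Igkv14-126 had 343 and 801 CPM in mutants, against 1163 and 1519 CPM in WT, and Ighv11-2 had 140 and 385 CPM in mutants, against 529 and 690 CPM in WT. These, a kappa and a heavy chain segment, did not overlap. Igkv4-91, another kappa segment, ran the other way without overlap, with 270 and 268 CPM in mutants, against 27.3 and 151 CPM in WT. Ighv12-3, another heavy chain segment, had 131 and 123 CPM in mutants, against 12.7 and 0.0223 CPM in WT. It passed 10 CPM through the mutants only, so no direction is read from it. Which cells expressed these segments was not tested. Among sorted B cells no library exceeded 13.6 CPM for Igkv14-126 or 3.42 CPM for Ighv11-2. Iglv1 had 11.05 and 10.4 CPM in mutants, against 27.95 and 1155 CPM in WT, where WT replicate 2 alone was high. Jchain, which links the chains of secreted IgM and IgA, overlapped at 537 and 459 CPM in mutants and 369 and 970 CPM in WT.

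**Figure D3:**
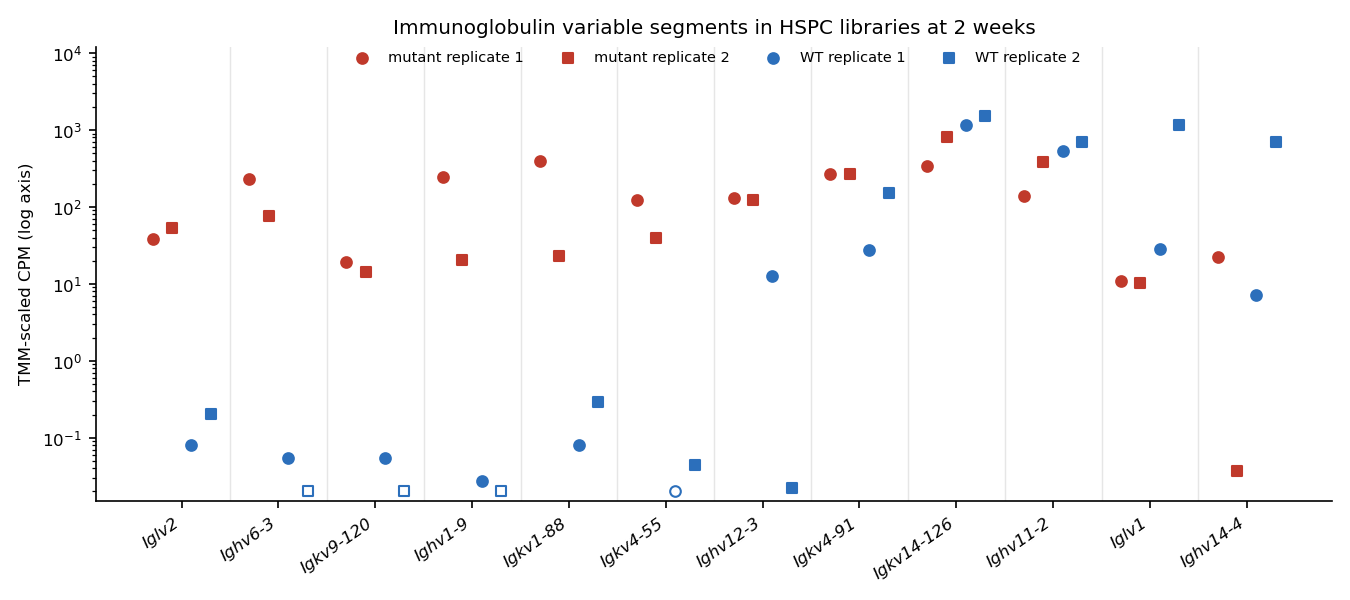
CPM of 12 immunoglobulin variable segments in each 2-week HSPC library on a log axis, with open symbols near the bottom for segments with no count. The leftmost 6 segments are at 10 CPM or more in both mutant libraries and under 1 CPM in both WT libraries, and Igkv14-126 and Ighv11-2 are higher in both WT libraries.

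Megakaryocyte and platelet genes were lower in mutants. Of 29 members 28 were tested and 19 were well expressed, of which 3 were higher and 16 lower, with a median of -0.33 against 0.01 over all well expressed genes and -0.38 over all 28. Without overlap 1 was higher and 11 lower, 1 and 4 had an unadjusted p under 0.05, and none was called by edgeR and 2 by DESeq2. The median lay between -0.41 and -0.24 when each library was left out. Itga2b, the integrin chain CD41 of platelets and early megakaryocyte progenitors, had 71.4 and 96.2 CPM in mutants, against 179 and 130 CPM in WT, with -0.88 ± 0.21 and adjusted p = 0.125. Of the leave-outs, the one without mutant replicate 2 alone gave a call for Itga2b, at adjusted p = 0.0179. Pf4, a platelet chemokine, had 16.01 and 18.1 CPM in mutants, against 40.2 and 32.7 CPM in WT, with -1.10 ± 0.38. Nfe2, a factor of platelet formation, had 120 and 153 CPM in mutants, against 195 and 177 CPM in WT. The exception was Mmrn1, a platelet and endothelial secreted protein, with 53.7 and 27.2 CPM in mutants, against 22.5 and 25.8 CPM in WT. Gata1, a master factor of megakaryocytes and red cells, was even, at 152 and 142 CPM in mutants and 146 and 148 CPM in WT. Of the late platelet markers, Gp1bb had no count in mutants and 0.461 and 0.134 CPM in WT, and Gp9 was at 5.57 and 4.60 CPM in mutants and 8.68 and 7.85 CPM in WT.

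The well expressed members of the stem cell list leaned the same way, with exceptions, and the whole list less so. Of 34 members 25 were well expressed, 7 higher and 18 lower in mutants, with a median of -0.29. Over all 34, which were tested, 13 were higher and 21 lower with a median of -0.09, and 2 of the 25 were well expressed through 1 genotype only. The median of the 25 was -0.17 when mutant replicate 2 was left out and -0.18 when WT replicate 2 was. Without overlap 2 were higher and 12 lower, 2 and 9 had an unadjusted p under 0.05, and none was called by edgeR and 3 by DESeq2. Mycn, a MYC family factor of stem cells, had 12.9 and 14.2 CPM in mutants, against 24.5 and 23.0 CPM in WT, with -0.81 ± 0.21 and adjusted p = 0.16. Gata2, a factor of stem, megakaryocyte and mast cells, had 90.5 and 101 CPM in mutants, against 151 and 124 CPM in WT, and Meis1, a HOX cofactor, 41.4 and 56.8 CPM in mutants, against 75.1 and 60.8 CPM in WT. These genes were named among those in which no mutant library reached a WT one. Slamf1, which encodes CD150 of stem cells, had 3.17 and 7.13 CPM in mutants, against 10.03 and 10.4 CPM in WT. It passed 10 CPM through WT only. The 2 higher without overlap were Erg, an ETS factor of stem cells, with 172 and 144 CPM in mutants against 108 and 130 CPM in WT, and Socs2, a cytokine signaling inhibitor, with 26.2 and 16.4 CPM in mutants against 11.1 and 14.1 CPM in WT. Hlf, Kit and Gfi1b, other stem and progenitor genes, overlapped.

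Mast cell, basophil and eosinophil genes were lower in mutants in 13 of 14 well expressed members, from 25 on the list and 24 tested. The median was -0.44, -0.53 over the 24 tested, and -0.28 when mutant replicate 1 was left out, and 8 were lower and 0 higher without overlap. None of the 14 was called by edgeR and 0 by DESeq2, and 3 had an unadjusted p under 0.05. Cpa3, a mast cell protease, had 62.3 and 55.7 CPM in mutants, against 117 and 104 CPM in WT, with -0.90 ± 0.35 and adjusted p = 0.498. Cd63, a granule tetraspanin, had 51.2 and 67.2 CPM in mutants, against 91.8 and 85.3 CPM in WT. Both were named among the members whose libraries did not overlap. Mcpt8, a basophil protease, had 27.2 and 25.3 CPM in mutants, against 49.6 and 34.8 CPM in WT. Il1rl1, the interleukin 33 receptor, was even, at 49.1 and 45.4 CPM in mutants and 51.3 and 43.9 CPM in WT. The Cpa3 promoter is shown for its GATA letters, AGATAA or TGATAA on either strand, which were in 4 of 13 promoters of this list, 30.8%, and 2 of 10 of the megakaryocyte list, 20.0%, against 18.8% of all promoters and 11.1% of those of well expressed genes.
Cpa3 (chr3:20242182-20242431, minus strand): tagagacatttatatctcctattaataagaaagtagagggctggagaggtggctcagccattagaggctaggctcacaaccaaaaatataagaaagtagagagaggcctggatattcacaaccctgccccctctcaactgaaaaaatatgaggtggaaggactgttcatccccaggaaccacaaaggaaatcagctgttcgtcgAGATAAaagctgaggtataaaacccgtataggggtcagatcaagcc

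**Figure D4:**
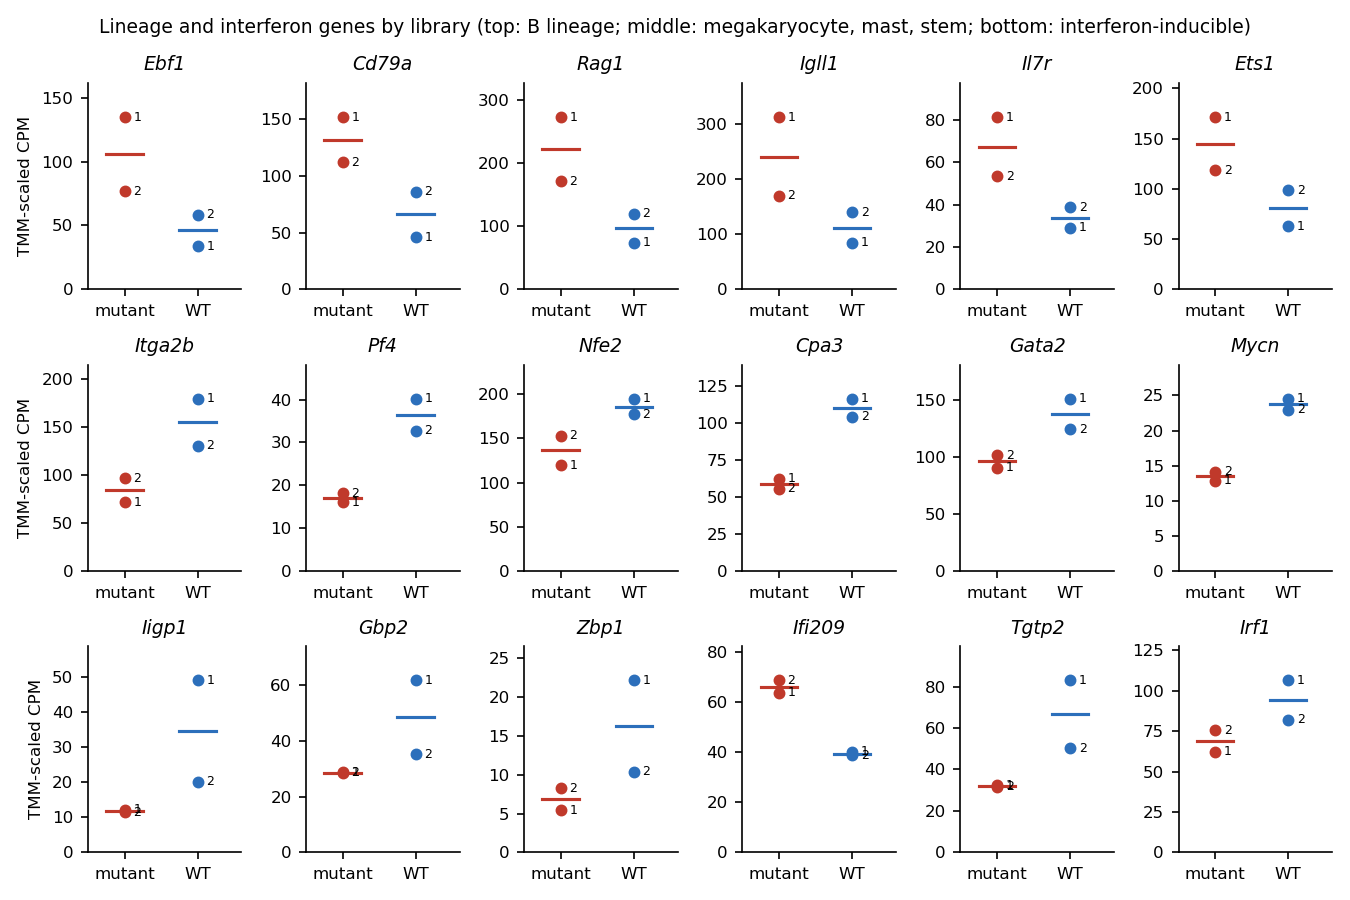
TMM-scaled CPM of 18 genes in each library, mutant left and WT right, with bars at the mean of the 2 libraries and digits for the replicate number. The genes were picked from those whose genotypes do not overlap, and list members that overlap are not shown. The B lineage genes are highest in mutant replicate 1, while most interferon genes are highest in WT replicate 1.

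Interferon response genes were mostly lower in mutants, and the size of the difference moved with WT replicate 1. All 45 members were tested and 39 were well expressed, 6 higher and 33 lower, with a median of -0.33, and -0.30 over all 45. WT replicate 1 held the highest value in 33 of the 39. Without it the median was -0.10 and 14 were higher. It was -0.54 when WT replicate 2 was left out and -0.18 when mutant replicate 1 was. Without overlap 15 were lower and 1 higher, and 10 and 1 had an unadjusted p under 0.05. None was called by edgeR, and DESeq2 called 1 higher and 1 lower. Iigp1, an interferon-inducible GTPase, had 12.1 and 11.4 CPM in mutants, against 49.0 and 20.2 CPM in WT, with -1.55 ± 0.53, and -0.78 without WT replicate 1. Zbp1, a nucleic acid sensor, had 5.45 and 8.27 CPM in mutants, against 22.1 and 10.4 CPM in WT, with -1.25 ± 0.33 and -0.61 without WT replicate 1. WT replicate 1 was more than 2-fold above WT replicate 2 in both, and Zbp1 passed 10 CPM through WT only. Gbp2, a guanylate-binding protein, had 28.7 and 28.6 CPM in mutants, against 61.8 and 35.3 CPM in WT, with -0.76 ± 0.24 and -0.31 without WT replicate 1. Irf1, a factor induced by interferon, had 62.4 and 75.7 CPM in mutants, against 106 and 82.1 CPM in WT. All 4 were named among genes whose genotypes did not overlap, and in each the lower WT value was replicate 2.

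A gene outside the list and the exception within it were closer to the threshold. Tgtp2, an interferon-inducible GTPase, had 32.3 and 31.6 CPM in mutants, against 83.0 and 50.1 CPM in WT, with -1.06 ± 0.22 and adjusted p = 0.0679, and it was called when WT replicate 2 was left out, at adjusted p = 0.0148. When WT replicate 1 was left out its change was -0.66 with adjusted p = 0.705. Ifi209, a member of the p200 family of DNA sensors, ran the other way, with 63.9 and 68.8 CPM in mutants, against 40.2 and 38.8 CPM in WT, at 0.75 ± 0.16 and adjusted p = 0.0679. Replicates were close for Ifi209 in both genotypes, and its change lay between 0.69 and 0.77 in the leave-outs.

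Promoters of 3 interferon-inducible genes that were lower in mutants are shown with the interferon-stimulated response element letters, GAAA on both sides of any 2 bases on either strand, in capitals (RefSeq, GRCm38.p6).
Gbp2 (chr3:142620413-142620662, plus strand): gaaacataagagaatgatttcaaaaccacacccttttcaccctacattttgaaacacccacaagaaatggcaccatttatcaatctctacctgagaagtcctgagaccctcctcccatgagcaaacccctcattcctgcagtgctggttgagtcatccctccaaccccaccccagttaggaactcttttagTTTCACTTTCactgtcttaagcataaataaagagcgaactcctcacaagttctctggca
Tgtp2 (chr11:49064213-49064462, minus strand): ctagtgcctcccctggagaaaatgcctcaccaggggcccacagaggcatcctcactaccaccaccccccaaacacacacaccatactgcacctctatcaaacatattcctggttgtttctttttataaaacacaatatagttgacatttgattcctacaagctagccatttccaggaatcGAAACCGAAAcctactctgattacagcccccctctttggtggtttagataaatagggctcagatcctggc
Igtp (chr11:58199306-58199555, plus strand): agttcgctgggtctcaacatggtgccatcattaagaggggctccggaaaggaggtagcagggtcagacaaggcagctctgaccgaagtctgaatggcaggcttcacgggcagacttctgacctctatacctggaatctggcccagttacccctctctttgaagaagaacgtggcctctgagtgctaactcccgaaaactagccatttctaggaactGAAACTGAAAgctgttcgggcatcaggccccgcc
Of 31 interferon list promoters 14 held these letters, 45.2%, against 3.46% of all promoters and 3.27% of those of well expressed genes. Of the 247 well expressed genes with the letters, 61 were lower without overlap, 24.7%, and 35 higher, 14.2%, against 17.0% and 15.4% of the 7565 well expressed genes with a promoter. Outside the list, 56 of 233 such genes were lower, 24.03%, with a median log2 fold change of -0.02. Within the list the median was -0.28 for the 14 with the letters and -0.30 for the 17 without.

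**Figure D5:**
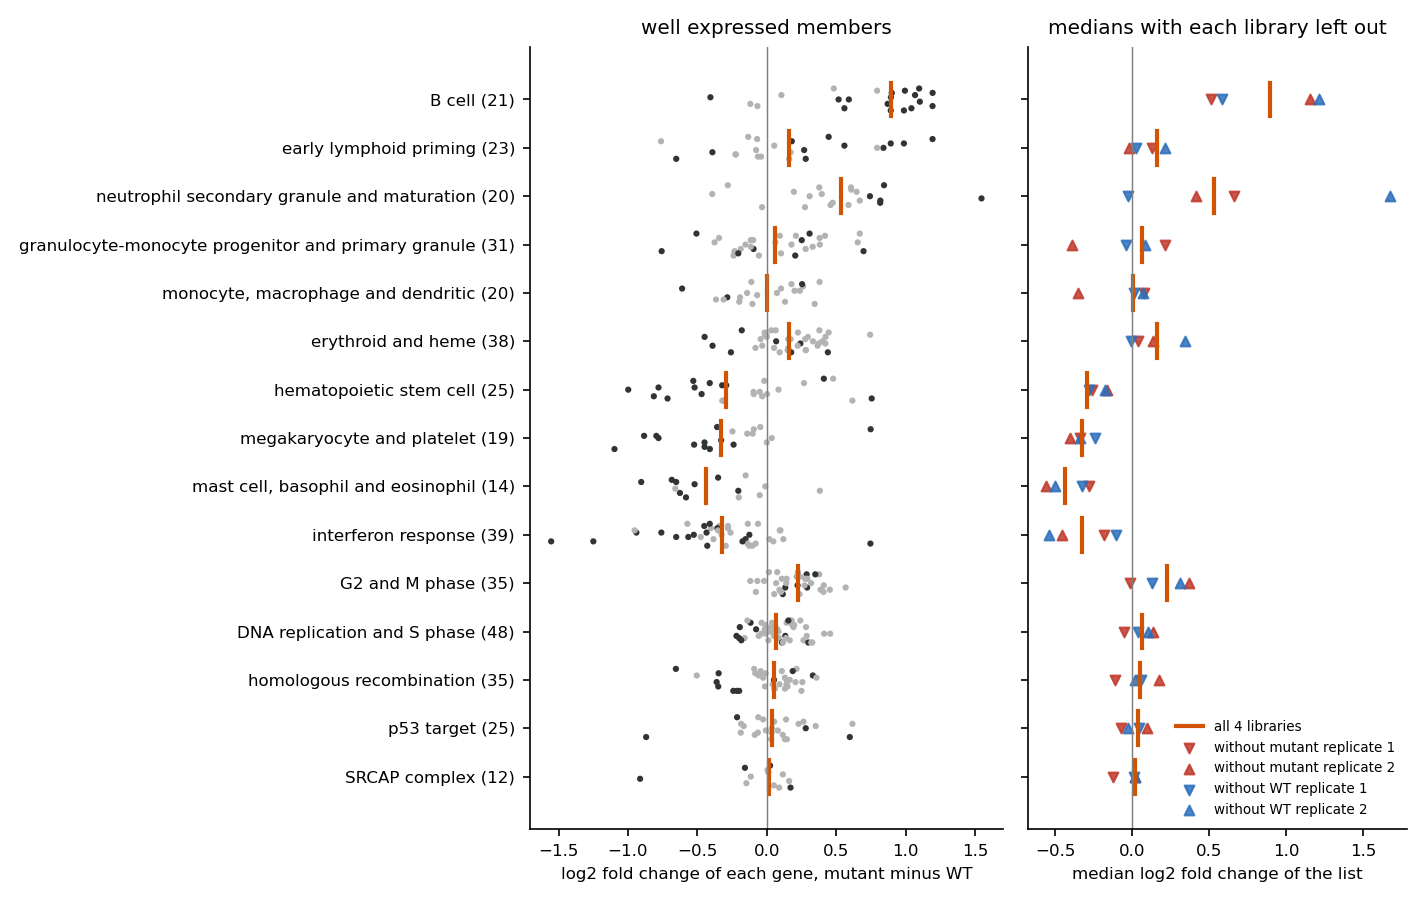
Left, log2 fold changes of the well expressed members of 15 lists, dark where the genotypes do not overlap, with an orange bar at the median. Right, the median with all 4 libraries and with each left out. The B cell list stays above 0 and the stem, megakaryocyte, mast cell and interferon lists stay below 0 in every leave-out, while the neutrophil list goes from 1.67 without WT replicate 2 to -0.03 without WT replicate 1.

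In the myeloid lists the order of the libraries followed single replicates. Neutrophil granule genes were higher in mutants in 17 of 20 well expressed members, with a median of 0.53, and 0.46 over all 25 members, but 18 of the 20 were lowest in WT replicate 1. The median was -0.03 when that library was left out and 1.67 when WT replicate 2 was. S100a9, an abundant neutrophil protein, had 1111 and 973 CPM in mutants, against 273 and 972 CPM in WT. Granulocyte-monocyte progenitor genes were split, 16 higher and 15 lower, with a median of 0.06, and 20 of the 31 were highest in mutant replicate 2 and 19 lowest in mutant replicate 1. Their median was -0.39 when mutant replicate 2 was left out, 0.21 when mutant replicate 1 was and -0.04 when WT replicate 1 was. Elane, neutrophil elastase, had 248 and 609 CPM in mutants and 337 and 369 CPM in WT, so its 2 mutant libraries lay on either side of WT. Monocyte, macrophage and dendritic genes had a median of 0.00 over 20, with 10 higher, -0.11 over all 30 members, and, over the 20, -0.35 when mutant replicate 2 was left out. Of 38 erythroid and heme genes 28 were higher, with a median of 0.16. Without overlap 4 were higher and 4 lower, beside 15.4% and 16.8% of all well expressed genes. The erythroid median was -0.01 when WT replicate 1 was left out, 0.04 when mutant replicate 1 was and 0.34 when WT replicate 2 was. Fech, the last enzyme of heme synthesis, had 164 and 132 CPM in mutants, against 88.4 and 130 CPM in WT. Of the lymphoid remainder, the plasma cell list had a median of -0.16 over 11 well expressed genes and -0.21 over all 16. Leave-outs gave the 11 a median of -0.10 without mutant replicate 1 and -0.31 without mutant replicate 2. The T and NK cell list was split, 15 higher and 16 lower of 32 tested with a median of -0.01, while its 6 well expressed members had -0.29, and -0.14 without mutant replicate 1. Among those 6 was Lat, a signaling adaptor of T cells, mast cells and platelets, with 12.8 and 16.9 CPM in mutants, against 28.5 and 24.9 CPM in WT, at -0.85 ± 0.19 and adjusted p = 0.0928.

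The remaining genes near the threshold belong to no single list. Gpat3, an enzyme of glycerolipid synthesis, had 27.4 and 14.3 CPM in mutants, against 5.83 and 9.19 CPM in WT, with 1.47 ± 0.30 and adjusted p = 0.0679. Its change was 0.88 without mutant replicate 1, at adjusted p = 0.467, and it was called without mutant replicate 2, at 1.86. Zcchc24, a zinc finger gene, had 24.2 and 20.0 CPM in mutants, against 10.3 and 12.0 CPM in WT, with 0.98 ± 0.21 and adjusted p = 0.0821. P2ry14, the UDP-glucose receptor of stem and progenitor cells, had 16.2 and 18.1 CPM in mutants, against 28.4 and 28.5 CPM in WT, with -0.73 ± 0.16 and adjusted p = 0.0848. The replicates of P2ry14 differed little in both genotypes. Akr1c13, an aldo-keto reductase, had 8.60 and 10.8 CPM in mutants, against 21.2 and 17.1 CPM in WT, with -0.98 ± 0.20 and adjusted p = 0.0679. It passed 10 CPM through WT only, and Gpat3 through mutants only.

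The programmes named in the series title had medians close to 0, though their members were not always split evenly. Of 35 homologous recombination genes 19 were higher and 16 lower in mutants, with a median of 0.05. Without overlap 3 were higher and 7 lower, beside 15.4% and 16.8% of all well expressed genes. The median was -0.11 when mutant replicate 1 was left out, and that of end joining genes then was -0.19. With mutant replicate 2 left out these medians were 0.17 and, for end joining, 0.23. Mus81, a junction endonuclease, had 12.0 and 21.5 CPM in mutants, against 29.5 and 23.1 CPM in WT. Of 22 end joining genes 15 were higher and 7 lower, with a median of 0.05. Lig4, the ligase of that pathway, had 16.9 and 10.1 CPM in mutants, against 6.62 and 9.48 CPM in WT. It passed 10 CPM through mutants only. Fanconi anaemia genes were split 7 and 7 with a median of -0.00, and p53 targets 15 and 10 with a median of 0.04, which was -0.07 without mutant replicate 1. Rrm2b, a ribonucleotide reductase subunit induced by p53, had 24.96 and 17.2 CPM in mutants, against 13.2 and 14.7 CPM in WT, with 0.60 ± 0.18 and adjusted p = 0.289, and 0.26 without mutant replicate 1. Mitotic genes leaned higher in mutants, in 31 of 35 well expressed members, with a median of 0.22, but 32 were highest in mutant replicate 1 and the median was -0.01 without it. Of 48 DNA replication genes 34 were higher and 14 lower, with a median of 0.06. That median was below 0 without mutant replicate 1 and 0.14 without mutant replicate 2. The median of MYC and ribosome biogenesis genes was -0.00 over 35.

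The SRCAP complex and H2A.Z genes were measured beside Srcap. Of the 12 genes on the SRCAP complex list 8 were higher and 4 lower, with a median of 0.02, which was -0.13 without mutant replicate 1. Zfp932, listed with the complex, had 6.55 and 10.04 CPM in mutants, against 18.2 and 12.9 CPM in WT, with -0.91 ± 0.29 and adjusted p = 0.338. It passed 10 CPM through WT only. H2afz, which encodes H2A.Z.1, overlapped at 288 and 349 CPM in mutants and 352 and 324 CPM in WT. Anp32e, a chaperone that removes H2A.Z, had 577 and 431 CPM in mutants, against 313 and 411 CPM in WT, with 0.48 ± 0.17 and adjusted p = 0.411. Of 23 INO80 and TIP60 complex genes 10 were higher and 13 lower, and Actr5, an INO80 subunit, had 20.0 and 22.7 CPM in mutants, against 33.5 and 31.1 CPM in WT. None of these genes was called by edgeR, and 0 by DESeq2. The 16 other lists with at least 3 well expressed members had medians between -0.18 and 0.16.

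Of the 27 called genes 24 were under 10 CPM, 22 of these lower in mutants. Klhl4, a kelch-like gene, fell to 0.509 and 0.331 CPM in mutants, against 2.82 and 3.05 CPM in WT, with -2.76 ± 0.38 and adjusted p = 0.00558, and was called in all 4 leave-outs. The 2 weak genes that rose were Gm43305, with 8.10 and 10.1 CPM in mutants against 2.03 and 2.27 CPM in WT, and Igf2bp3, an RNA-binding protein of fetal stem cells, with 7.97 and 7.21 CPM in mutants against 1.63 and 2.03 CPM in WT. Gm43305 was lost without WT replicate 1, at adjusted p = 0.0773, and Igf2bp3 in all leave-outs but that of mutant replicate 2. Dnaaf3, an axonemal assembly factor, fell to 0.549 and 0.882 CPM in mutants, against 5.37 and 3.57 CPM in WT, with -2.66 and adjusted p = 0.0162. Cldn12, a claudin, fell to 2.48 and 2.94 CPM in mutants, against 7.02 and 7.49 CPM in WT, with -1.43 and adjusted p = 0.0255. Gng11, a G protein subunit on the megakaryocyte list, fell to 1.67 and 1.18 CPM in mutants, against 4.61 and 3.79 CPM in WT, with -1.54 and adjusted p = 0.0396. No library of Dnaaf3, Cldn12 or Gng11 crossed between genotypes, and each was lost in at least 2 leave-outs: without WT replicate 1 and mutant replicate 1 for Dnaaf3 and Gng11, and without either of these or WT replicate 2 for Cldn12. Hoxb2, a homeobox gene, had 2 and 1 counts in mutants and 37 and 54 in WT, a ratio of WT to mutant of 28.3 with a counting interval of 9.40 to 140. Pdgfa, a growth factor, had no count in mutants and was at least 8.38-fold lower against a floor of 3 counts per library, and the BMP receptor Bmpr1a at least 4.99-fold lower, with counting error only in these bounds.

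Low counts differed between the genotypes as a whole. No count in either mutant library stood against 5 or more in both WT libraries for 320 genes, and the reverse for 17. Genes with any count numbered 17795 and 18326 in mutants, against 21603 and 19903 in WT. Of 10057 tested genes under 10 CPM, 22.2% were lower and 10.1% higher without overlap, with a median log2 fold change of -0.12. The part of this in the 22 lower calls was not tested.

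The same contrast in the other HSPC conditions was set beside these values. The B cell list median was 0.33 in untreated, 0.46 in doxorubicin and -0.03 in 20-week HSPCs, the megakaryocyte median -0.20, -0.26 and 0.04, the mast cell median -0.23, -0.45 and 0.16, and the interferon median 0.03, 0.11 and 0.06, each for the genes well expressed at 2 weeks. The test of the 2-week mutant effect against the mean effect of the other 3 conditions called 4 genes, 0.0205% of those tested, and 2032 had an unadjusted p under 0.05, 10.4%. Iglv2 was the well expressed one, with a difference of 8.32 and adjusted p = 0.0171. No member of the lists named above and well expressed was among the 4. This difference cannot be told apart from the sex of the cells or the header directory, which also separate the 2-week libraries from the others.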

How the data were processed

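Poly(A) RNA of sorted mouse HSPCs was sequenced with a stranded kit, per the labels' protocols. The deposited values are raw counts per gene, made by the authors with featureCounts 2.0.1 on GENCODE M28, per the file headers, and the submitters' processing notes also name FastQC, STAR, Subread, mm10 and mm39. How reads were aligned is not stated there beyond these names. Gene positions in the files are those of GRCm39. Of 55414 IDs 52081 took a symbol, which covers 99.85% of counts. The 2-week headers number the WT libraries 1 and 3, which the labels call 1 and 2.

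The 16 HSPC libraries of 8 groups were filtered with filterByExpr (minimum 10 counts, total 15), scaled by TMM and fitted with 1 mean per group by robust quasi-likelihood in edgeR 4.0.16 (R 4.3.3, limma 3.58.1). Calls used a false discovery rate of 0.05 by Benjamini-Hochberg, taken across the 19522 genes tested, and "rose" or "fell" is used of called genes. Lists are described by counts and medians, with no set test. Also tried were RLE size factors, DESeq2 1.42.0, no filter, the replicate number as a block, the 4 libraries alone, no immunoglobulin genes, a minimum of 50 CPM and each library left out. Scripts were tested on simulated data. Tables and motif searches used Python 3.11.15, pandas 2.3.3 and scipy 1.17.1, and figures matplotlib 3.10.9. Promoters are RefSeq sequences on GRCm38.p6.

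The members, the 39 lists and the tests were chosen with earlier results of these data known. The rule for named genes took Srcap, called genes with a mean of 1 CPM or more and the 6 largest changes among the weaker ones, the 20 smallest unadjusted p and 10 largest changes in each direction among well expressed genes without overlap, up to 6 such members of each list, and cell type markers. Genes named beyond it were chosen after their values were seen, and are Igll1, Cd79b, Pou2af1, Pax5, Cd37, Cd72, Ly6d, Ikzf1, Bcl11a, Satb1, Cd27, Flt3, Igkv14-126, Ighv11-2, Jchain, Igha, Igkc, Hlf, Kit, Gfi1b, Gata1, Gp1bb, Gp9, Il1rl1, Elane, H2afz, Npdc1, Bmpr1a and Igtp where no marker list holds them. Ratios of B lineage genes were taken to Cd79a, also chosen after values were seen. Some genes of these lists are not reported here by name.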

Additional observations from a re-analysis of the deposited data

Results flagged for a closer look

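In 4 genes the mutant effect at 2 weeks differed from the mean mutant effect in untreated, doxorubicin and 20-week HSPCs, by edgeR's quasi-likelihood test of the difference itself over all genes. Iglv2, the light chain segment, had adjusted p = 0.0171 and a difference of 8.32 on the log2 scale, with both mutant libraries above both WT libraries at 2 weeks. The other 3 were weakly expressed genes lower in both mutant libraries. Tmem136 had adjusted p = 0.0376, with 0 and 0 counts in mutants and 20 and 47 in WT. Spint1 had adjusted p = 0.0441, with 0 and 0 counts in mutants and 32 and 24 in WT. Npdc1 had adjusted p = 0.0481, with 0 and 2 counts in mutants and 32 and 35 in WT. The 2-week libraries differ from the others in the sex of the cells and the header directory, which cannot be told apart from time after transplantation here.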

How the results depend on the processing

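The 27 calls became 261 with DESeq2, 399 with no filter on low counts, 16 with the replicate block, 2 in the 4 libraries alone, and 11 to 672 with 1 library left out. The 3 well expressed calls became 86 with DESeq2, 172 with no filter and 0 at a mean of 50 CPM or more, and were 2 to 282 with 1 library left out. The 629 well expressed genes with an unadjusted p under 0.05 and no overlap became 365 in the 4 libraries alone and 245 at 50 CPM or more, and 163 to 2005 with 1 library left out. The 4 genes of the difference test became 227 with DESeq2, 528 with no filter, and 4 to 555 with 1 library left out. The cause of these shifts was not tested, but each leave-out also leaves 1 library in its group, which is assumed to vary like the other groups. RLE size factors kept all 4 counts within 1.5 times, at 26, 3, 626 and 3, and so did leaving out immunoglobulin genes and Jchain, at 32, 4, 656 and 3.

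Of the 90 gene results, 0 changed direction under any alternative run. Many of these genes were named because their genotypes did not overlap, so leaving out 1 library could hardly reverse them. Their kept direction is thus no test of it. DESeq2 brought 29 past the threshold and lost 0, no filter brought 45 past it, the 4 libraries alone lost 15, the replicate block lost 7, and leave-outs lost 12 without mutant replicate 1, 14 without WT replicate 1, 6 without WT replicate 2 and 0 without mutant replicate 2, which brought 34 past it. Of 39 list medians, 23 moved by more than the spread between replicates without mutant replicate 2, 17 without mutant replicate 1, 6 without WT replicate 2 and 4 without WT replicate 1. The replicate numbers did not pair the libraries: the deviations of same-numbered mutant and WT libraries correlated at -0.026 across 19522 genes, which are not independent replicates. With 2 libraries in each group, weakly expressed genes and changes of single list members are beyond the precision of these data.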

Other observations

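The T cell and NK cell list was split between the genotypes, and its members below were picked after their values were seen. Klrb1c, which encodes NK1.1, had 8.10 and 6.58 CPM in mutants, against 2.60 and 2.48 CPM in WT, with a log2 fold change of 1.53 ± 0.35 and adjusted p = 0.107. Ncr1, which encodes NKp46, had 6.94 and 5.07 CPM in mutants, against 2.25 and 2.76 CPM in WT, with adjusted p = 0.498. Markers of T cells did not separate the genotypes, with Cd3e at 1.44 and 0.846 CPM in mutants and 0.217 and 1.52 CPM in WT. Gzmb, a protease of cytotoxic cells, was lower in both mutant libraries, at 8.87 and 7.83 CPM, against 15.5 and 10.3 CPM in WT, with adjusted p = 0.846. It passed 10 CPM through WT only. Nkg7, a granule protein of cytotoxic and myeloid cells, was lower at 76.3 and 128 CPM in mutants, against 148 and 142 CPM in WT.

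Immunoglobulin constant genes differed in class between single libraries. Ighg2c had 0.0203 and 0.0368 CPM in mutants, against 13.1 and 800 CPM in WT, where WT replicate 2 alone was high. Igha had 1400 and 463 CPM in mutants, against 20.5 and 363 CPM in WT. Igkc, the kappa constant segment, was at 1979 and 1918 CPM in mutants and 1609 and 2236 CPM in WT, so the genotypes overlapped.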
